A study of Sus scrofa with 18 samples.

Results

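The neural splicing regulators described here are 10 genes for RNA-binding proteins, PTBP1, PTBP2, NOVA1, NOVA2, RBFOX1, RBFOX2, RBFOX3, SRRM4, ELAVL3 and ELAVL4. They were chosen by gene name, with no measured value in the rule, although earlier results of these data were known. All 10 were found in the gene table of 31908 genes, and all 10 were among the 16325 genes that passed the filter on low counts.

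Transcripts of whole fetal brains of domestic pigs (Landrace x Large White gilts bred by artificial insemination, with no treatment) were measured by RNA-seq at gestation days (GD) 45, 60 and 90. Each of the 6 groups, females and males at each GD, had 3 fetuses, and replicate numbers below are the piglet numbers in the labels. By the GD and litter size in the labels, the 6 fetuses of a GD came from 3 litters, with 1 female and 1 male from each, so libraries of a GD are not fully independent. Gene counts per library ranged from 15118843 to 19729783, with a median of 16413097. The neuron markers checked (DCX, STMN2, MAP2, TUBB3, SYT1, SNAP25, SYN1, NEFL and GAP43) had counts in every library, with summed levels from 6607 to 11264 CPM (read counts scaled to the same library size and normalised for library composition by TMM). Markers of spinal cord and caudal hindbrain (HOXA5, HOXB5, HOXC4, HOXD3 and HOXB8) summed to 76.8 CPM in female GD45 replicate 13, to 26.2 in female GD45 replicate 18, and to between 0 and 13.6 in the other GD45 libraries, and they did not exceed 1.2 CPM at GD60 or GD90. In whole brain, fewer cells of a type and less RNA per cell cannot be told apart.

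Splicing joins exons of a transcript, and neurons include many short or alternative exons that other cells skip. PTBP1, which is made in progenitors and non-neuronal cells, represses such exons, and its neuronal paralogue PTBP2 takes its place as neurons arise, while NOVA, RBFOX, SRRM4 and ELAVL proteins favour or block sets of exons in neurons. Several of these genes are themselves controlled through alternative exons, where skipping leads to decay of the transcript or to an altered protein.

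Such exons of PTBP1, PTBP2 and the RBFOX genes are printed because they link the genes to each other. In PTBP2, the 34-base exon, known in the mouse as exon 10, is the one that PTBP1 protein is known to repress, which exposes the transcript to decay, and PTBP1 has a homologous 34-base exon. The sequences were read from the Sscrofa11.1 genome, 5′ to 3′ in the direction of the transcript, with 100 bases of intron before the exon and 50 after it in lower case and the exon in capitals. The PTBP1 exon is at chr2:77554214-77554247 on the minus strand, and the PTBP2 exon at chr4:120970230-120970263 on the minus strand.
PTBP1: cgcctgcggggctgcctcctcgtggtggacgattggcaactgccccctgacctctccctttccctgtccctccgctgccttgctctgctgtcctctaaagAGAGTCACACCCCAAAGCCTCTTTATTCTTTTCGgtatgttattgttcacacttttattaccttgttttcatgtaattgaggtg
PTBP2: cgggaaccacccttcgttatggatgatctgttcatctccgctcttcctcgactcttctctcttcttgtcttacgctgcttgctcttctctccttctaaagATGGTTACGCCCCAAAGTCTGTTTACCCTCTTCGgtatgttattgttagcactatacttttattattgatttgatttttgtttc
The 2 exons had the same base at 25 of 34 positions (73.5%). The letters TCTT, a short form of the pyrimidine-rich element that PTB proteins bind, were found 6 times in the 100 bases before the PTBP2 exon and 0 times in those before the PTBP1 exon, on the transcript strand with overlaps counted. Of 244902 windows of 100 bases before exons of the deposited annotation, 57.7% held TCTT at least once and 0.193% held it 6 times or more. A match describes the letters only.

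In the RBFOX genes, a 93-base exon encodes part of the RNA recognition motif, and its skipping is known to give a protein that does not bind RNA. It is printed for all 3 paralogues, with the same flanks, to show how they differ. The exon is at chr3:35072275-35072367 (minus strand) in RBFOX1, at chr5:11875949-11876041 (plus strand) in RBFOX2 and at chr12:3126333-3126425 (plus strand) in RBFOX3.
RBFOX1: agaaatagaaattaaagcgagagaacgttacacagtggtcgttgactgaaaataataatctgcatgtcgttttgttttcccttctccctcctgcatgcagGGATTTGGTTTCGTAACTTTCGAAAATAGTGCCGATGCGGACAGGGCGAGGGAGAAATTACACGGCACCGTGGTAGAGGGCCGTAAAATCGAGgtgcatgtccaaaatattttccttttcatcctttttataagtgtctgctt
RBFOX2: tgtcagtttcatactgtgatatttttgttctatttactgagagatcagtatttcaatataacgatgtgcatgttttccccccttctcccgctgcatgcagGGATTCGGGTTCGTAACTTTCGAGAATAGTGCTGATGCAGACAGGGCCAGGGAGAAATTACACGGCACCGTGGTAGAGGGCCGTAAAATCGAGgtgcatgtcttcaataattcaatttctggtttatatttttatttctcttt
RBFOX3: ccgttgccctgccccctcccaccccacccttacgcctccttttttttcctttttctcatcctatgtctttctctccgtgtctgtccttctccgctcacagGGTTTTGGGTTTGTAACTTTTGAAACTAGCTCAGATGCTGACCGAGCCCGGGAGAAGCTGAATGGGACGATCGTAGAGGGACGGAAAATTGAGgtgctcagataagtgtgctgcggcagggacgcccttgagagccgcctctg
The RBFOX1 and RBFOX2 exons had the same base at 87 of 93 positions (93.5%), and the RBFOX3 exon matched each of them at 68 (73.1%). The letters TGCATG, which RBFOX proteins bind, were found 2 times before and 1 time after the exon in both RBFOX1 and RBFOX2, on the transcript strand, and were not found in the same windows of RBFOX3. Of all windows before exons, 2.39% held TGCATG.

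Levels between genes can be compared only per length of the gene model, and on that scale (FPKM, CPM per kilobase) ELAVL3, a neuronal RNA-binding protein of the Hu family, had the highest mean at each GD. Its mean was 88.7 ± 34.8 FPKM at GD45 (SD, n = 6), 77.8 ± 30.8 at GD60 and 80.9 ± 22.7 at GD90. SRRM4, the activator of neuronal microexons, had the lowest mean at each GD, with 3.91 ± 1.31, 4.33 ± 1.25 and 3.07 ± 1.29 FPKM. Between these, NOVA2 stood second by mean at each GD, and at GD90 its lowest library (59.2 FPKM) was above the highest RBFOX2 library (45.7 FPKM). PTBP1 moved from the fifth place at GD45, with 28.6 ± 1.80 FPKM, to the eighth at GD90, with 13.8 ± 1.35 FPKM, and RBFOX3 from the ninth to the sixth, from 6.46 ± 1.36 to 17.1 ± 1.80 FPKM. Most neighbours in these orders overlapped between libraries. The libraries were separate only for RBFOX2 over PTBP1 and RBFOX3 over SRRM4 at GD60, and for NOVA2 over RBFOX2, PTBP1 over NOVA1 and NOVA1 over SRRM4 at GD90. These orders rest on the model lengths, which were shortest for NOVA2 (1777 bases) and ELAVL3 (2087 bases). By mean CPM, RBFOX2 (397, 373 and 314 at the 3 GDs) was above ELAVL3 (185, 162 and 169).

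**Figure D1:**
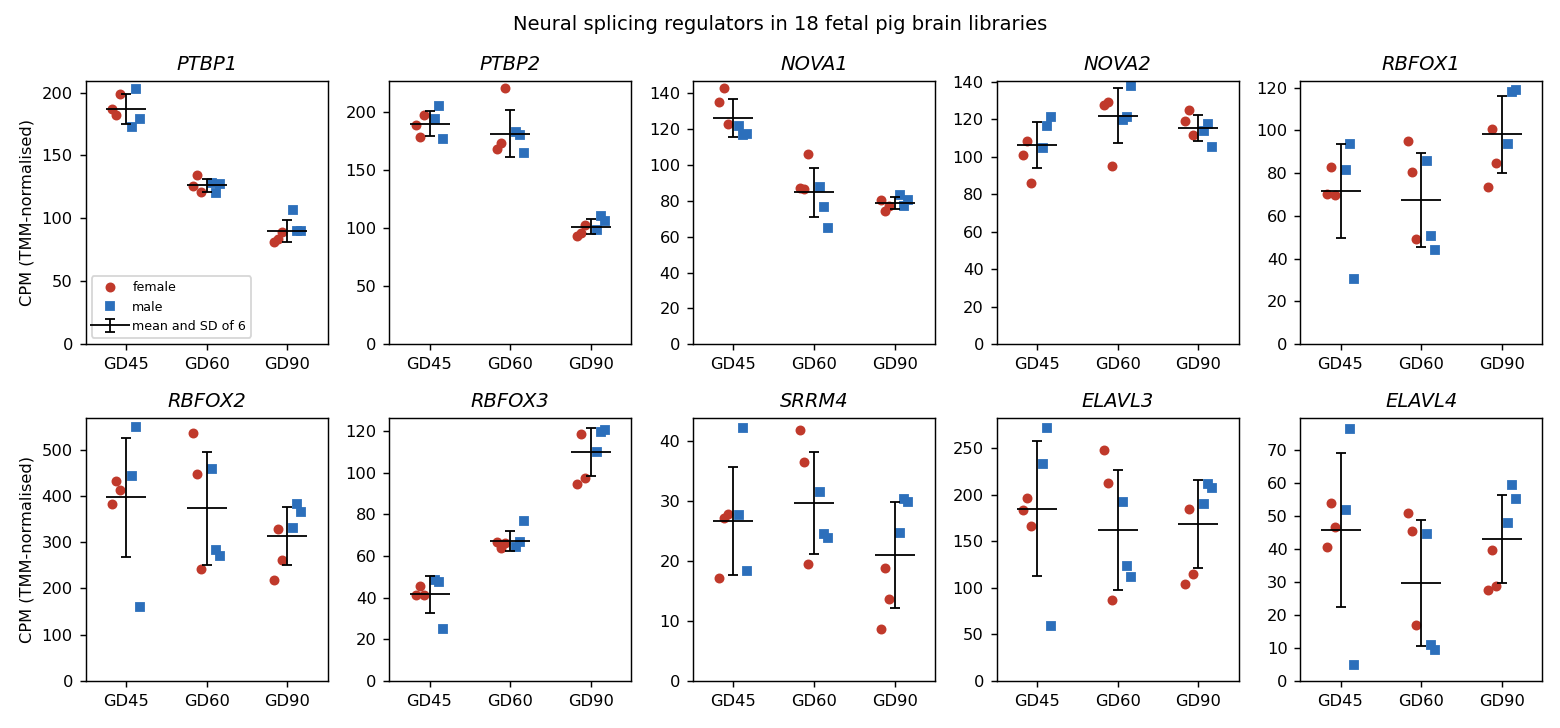
CPM (vertical axis, TMM-normalised, from 0) of the 10 genes at GD45, GD60 and GD90 (horizontal axis), with 1 point per library, circles for females and squares for males, and the mean and SD of the 6 libraries of each GD. PTBP1 stepped down and RBFOX3 stepped up with no overlap between GDs, and ELAVL4 ran from 4.97 to 76.3 CPM within GD45.

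To ask how the genes changed with development, consecutive GDs were compared with sexes averaged. From GD45 to GD60, PTBP1 and NOVA1 fell and RBFOX3 rose, 3 of the 10 genes, beside 16.7% of all genes tested. From GD60 to GD90, PTBP1 and PTBP2 fell and RBFOX3 rose, again 3 of 10, beside 42.4% of all genes. Over the whole span from GD45 to GD90, 4 of 10 changed, with PTBP1, PTBP2 and NOVA1 lower and RBFOX3 higher, beside 57.5% of all genes. The median log2 fold change of the 10 genes was -0.09 for the first interval, -0.09 for the second and -0.26 for the span, and over all genes tested it was -0.01, -0.01 and -0.03. For the last 2 comparisons the share of the 10 genes was below that of all genes, so the counts do not set these genes apart.

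**Figure D2:**
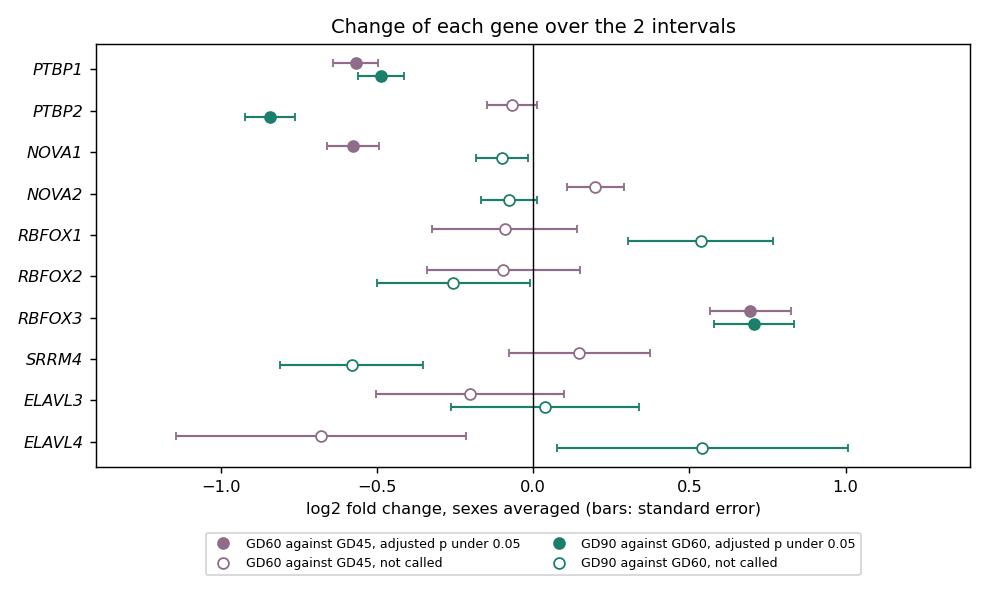
Log2 fold change (horizontal axis) of each of the 10 genes with its standard error for GD60 against GD45 and GD90 against GD60, sexes averaged, where filled points passed an adjusted p of 0.05 in edgeR. PTBP1 and RBFOX3 passed in both intervals and in opposite directions, PTBP2 only in the later and NOVA1 only in the earlier one, although the 2 intervals were not tested against each other.

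PTBP1, the repressor of neuronal exons outside neurons, had 172 CPM in the lowest library at GD45, with a median of 185 and a highest value of 203. At GD60 it had 120, 127 and 135 CPM (lowest, median and highest), and at GD90 81.4, 89.7 and 107 CPM. Each GD was fully below the one before it. The fall was -0.57 on the log2 scale from GD45 to GD60 (SE 0.07, edgeR adjusted p = 4.93e-05) and -0.49 from GD60 to GD90 (SE 0.07, adjusted p = 4.77e-05). Libraries did not overlap between consecutive GDs for 8.47% of all genes in the first interval, for 24.1% in the second and for 33.8% over the span. The fall was called in each sex alone, from -0.58 and -0.56 in females and males in the first interval to -0.58 and -0.39 in the second. PTBP1 (ENSSSCG00000013421, chr2:77551563-77563107, minus strand) shares exonic bases with PLPPR3, and how reads on shared bases were counted is not given in the sources used here.

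PTBP2, the neuronal paralogue, was at nearly the same level at GD45 (177, 191 and 205 CPM as lowest, median and highest) and at GD60 (165, 176 and 220 CPM). At GD90 it was between 93.4 and 111 CPM, with a median of 101. The first 2 GDs overlapped, and every GD90 library was below every earlier one. The difference was -0.07 from GD45 to GD60 (95% interval -0.24 to 0.10, edgeR adjusted p = 0.615) and -0.84 from GD60 to GD90 (SE 0.08, adjusted p = 4.09e-07), a level 1.79-fold lower at GD90. The highest library at GD60 was female replicate 15, and without it the fall stood, as it did in all 27 alternatives tried, at between -0.88 and -0.78. PTBP2 (ENSSSCG00000006879) is at chr4:120961042-121041911 on the minus strand.

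The ratio of PTBP2 to PTBP1 counts, a value within each library that library size does not affect, was near 1 at GD45. It was 1.01, 0.983 and 0.994 in the females and 1.12, 1.01 and 0.987 in the males. At GD60 it was 1.34, 1.28 and 1.83 in the females and 1.43, 1.49 and 1.29 in the males, all above GD45. At GD90 it was 1.15 in each of the 3 females and 0.922, 1.23 and 1.18 in the males, all below GD60. The ratio was thus highest at the middle GD.

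The mean log2 ratio rose by 0.49 from GD45 to GD60 (exact two-sided permutation test, 6 against 6, p = 0.00216, adjusted over 3 comparisons p = 0.00325), a 1.41-fold change. It fell by 0.35 from GD60 to GD90 (exact permutation p = 0.00216, adjusted p = 0.00325), and 0.00216 is the smallest p that this test can give. GD90 stood 0.15 above GD45 (exact permutation p = 0.0584), a difference not resolved from the spread between libraries. This last comparison turned on single libraries: it was 0.20 without male GD90 replicate 1 (adjusted p = 0.00649 in the exact permutation test) and 0.18 without male GD45 replicate 11 (adjusted p = 0.0325). Per length of the gene models, the ratio was 1.75 ± 0.09, 2.48 ± 0.35 and 1.94 ± 0.18 (SD, n = 6).

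The fall of the ratio after GD60 depended on the table. From the summed exon counts, which hold 20.4% of the gene counts of PTBP1 and 11.0% of those of PTBP2, the rise to GD60 was 0.45 (exact permutation, adjusted p = 0.0292), but the change from GD60 to GD90 was -0.09 (adjusted p = 0.424) and GD90 stood 0.36 above GD45 (adjusted p = 0.0292). In these counts the ratio of male GD45 replicate 17 was 0.294, on 57 counts of PTBP2 and 194 of PTBP1, below the other 5 GD45 libraries (0.521 to 0.639). Without it the rise to GD60 was 0.29 and GD90 stood 0.20 above GD45 (exact permutation, adjusted p = 0.0649 for both). The rise was also not called without female GD60 replicate 3, 5 or 15 or male GD60 replicate 4 (adjusted p = 0.0519 to 0.0552). GD90 against GD45 was not called without female GD90 replicate 9, or without male GD90 replicate 1, 8 or 10 (exact permutation, adjusted p = 0.0682 to 0.0877). It was also not called without any 1 of the 4 GD60 libraries just named (adjusted p = 0.0519 to 0.0552). Those libraries are not in this comparison, where the unadjusted p of the permutation test stayed at 0.0195, and only the adjustment over 3 comparisons moved. For the ratio of gene counts, litter means (3 against 3) gave the same differences as single libraries, and the smallest p the exact permutation test then allows is 0.1. Litter means were not taken for the exon counts.

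**Figure D3:**
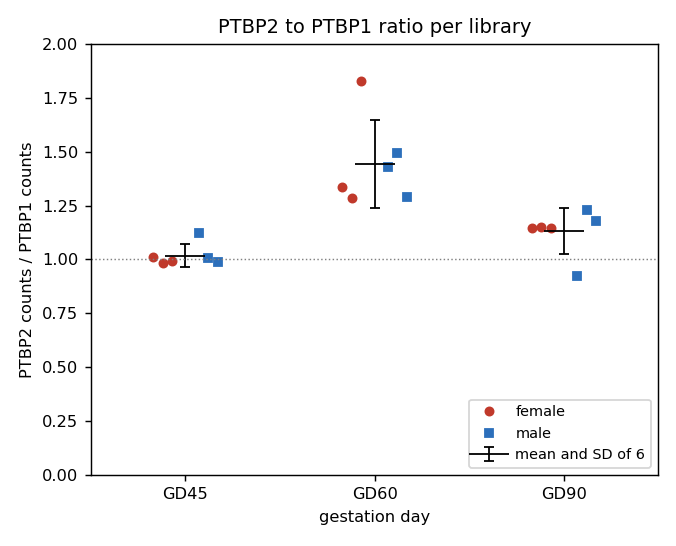
Ratio of PTBP2 to PTBP1 gene counts (vertical axis) in each library by GD (horizontal axis), with circles for females, squares for males, the mean and SD of 6, and a dotted line at 1. The 6 libraries of GD60 lie between 1.28 and 1.83, above those of GD45 (0.983 to 1.12) and of GD90 (0.922 to 1.23).

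Markers of other cell types moved over the same GDs. Cell division markers (TOP2A, CDK1, CCNB1, BUB1 and PCNA) summed to 286 to 377 CPM at GD45, 127 to 169 at GD60 and 75.9 to 98.0 at GD90, and all 5 fell in both intervals. Markers of radial glia and progenitors, which express PTBP1, summed to 1178 to 1765, 759 to 945 and 421 to 571 CPM, with 5 of 6 lower in the first interval and 6 of 6 in the second, while oligodendrocyte markers were between 63.2 and 83.7 CPM at GD45 and between 1873 and 3183 CPM at GD90, with 6 of 6 higher. From GD60 to GD90, astrocyte markers (5 of 5) and microglial markers (6 of 6) rose. Of 9 neuron markers, 4 rose and 1 fell in that interval. Beside these counts, 7.37% of all genes were lower in the first interval, 20.9% were lower and 21.4% higher in the second, and 57.5% changed over the span. The part of these markers in the change of PTBP1 or of any other gene was not tested. Over the 18 libraries, the genes whose log2 CPM was most like that of PTBP1 were CENPF (Pearson r = 0.98), KIF23 (r = 0.98) and POLE (r = 0.98), which act in chromosome segregation, cytokinesis and DNA replication. For PTBP2 they were RBMX, ZNF300 and LIPG (r = 0.98 for each). The libraries share their GD and litter, so these values describe the pattern only. The choice of nearest genes, here and for the genes that follow, depended on male GD45 replicate 17: without it, the same 3 genes were named for PTBP1, 2 of the 3 for PTBP2, RBFOX1 and RBFOX2, and 1 of the 3 for each of the others.

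NOVA1 and NOVA2 are paralogous proteins that bind YCAY elements and control exons of synaptic genes. At GD45, NOVA1 ranged from 117 to 143 CPM with a median of 122, at GD60 from 64.6 to 106 (87.0), and at GD90 from 74.3 to 83.2 (78.8). It fell between the first 2 GDs with no overlap, by 0.58 on the log2 scale (SE 0.08, edgeR adjusted p = 1.54e-04), and then stayed within the range of GD60, with a difference of -0.10 (95% interval -0.28 to 0.08, adjusted p = 0.362). NOVA2 ranged from 86.1 to 121 CPM with a median of 107 at GD45, reached a highest value of 138 with a median of 124 at GD60, and ranged from 105 to 125 with a median of 116 at GD90. The ranges overlapped throughout. Its differences were 0.20 (95% interval 0.01 to 0.39, adjusted p = 0.147) and -0.08 (95% interval -0.27 to 0.11, adjusted p = 0.516), and it passed the threshold for the first interval only without female GD60 replicate 15 (0.26, adjusted p = 0.0329). The genes most like NOVA1 over the 18 libraries were SOCS4 (r = 0.94), NUSAP1 (r = 0.92) and HMMR (r = 0.92), and those most like NOVA2 were BRSK1 (r = 0.84), USP22 (r = 0.80) and VOPP1 (r = 0.80). NOVA1 (ENSSSCG00000024396) is at chr7:72805230-72961260, and NOVA2 (ENSSSCG00000035029) at chr6:52248930-52278524.

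RBFOX3, whose protein is the NeuN antigen of mature neurons, had 41.3, 45.7 and 41.1 CPM in the females and 48.5, 47.4 and 24.9 CPM in the males at GD45. At GD60 it had 63.8 to 76.6 CPM, with a median of 66.2, and at GD90 94.4 to 120 CPM, with a median of 114. Every library was above all libraries of the GD before. The rise was 0.70 in the first interval (SE 0.13, edgeR adjusted p = 0.00126) and 0.71 in the second (SE 0.13, adjusted p = 3.14e-04), together 2.64-fold (log2 1.4, SE 0.13, adjusted p = 1.14e-07). In females alone the first rise was 0.62 (adjusted p = 0.0509), and in males 0.78 (adjusted p = 0.0180). The nearest genes by pattern were RARB (r = 0.99), SPIRE1 (r = 0.98) and ANO3 (r = 0.98). RBFOX3 (ENSSSCG00000039498) is at chr12:2710014-3137519 on the plus strand.

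The paralogues RBFOX1 and RBFOX2, which bind the same TGCATG letters, did not pass the test in either interval with sexes averaged. RBFOX1 ranged from 30.6 to 93.8 CPM with a median of 75.9 at GD45. Its lowest and median values were 44.0 and 65.6 at GD60, with a highest value of 95.04, and it ranged from 73.4 to 119 with a median of 97.0 at GD90. RBFOX2 ranged from 160 to 549 CPM (median 422), from 241 to 537 (365) and from 218 to 383 (329) over the 3 GDs in turn. The ranges of all 3 GDs overlapped for both genes, and within a GD the highest library was up to 3.43-fold above the lowest. The differences of RBFOX1 were -0.09 (SE 0.23, edgeR adjusted p = 0.834) and 0.54 (SE 0.23, adjusted p = 0.0734), and those of RBFOX2 were -0.10 (SE 0.24, adjusted p = 0.833) and -0.26 (SE 0.24, adjusted p = 0.426). Without male GD45 replicate 17, RBFOX1 passed for GD90 against GD60 (0.54, edgeR adjusted p = 0.0131), as it did in 5 of 27 alternatives in all, and RBFOX2 passed for GD90 against GD45 (-0.54, adjusted p = 0.0161). That library enters GD90 against GD60 only through the shared estimate of spread. The genes nearest to RBFOX1 were G3BP2, MTPN and TJP1 (r = 0.98, 0.98 and 0.97), and those nearest to RBFOX2 were ARID1A, VANGL2 and KLHL29 (r = 0.98, 0.97 and 0.97). RBFOX1 (ENSSSCG00000007917) is at chr3:34939572-37209658, and RBFOX2 (ENSSSCG00000000152) at chr5:11633519-11905311, where its model shares exonic bases with ENSSSCG00000046062.

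SRRM4, which promotes the inclusion of microexons in neurons, had 146 to 702 counts per library. In females it had 17.1, 27.3 and 27.8 CPM at GD45, 42.0, 36.5 and 19.5 at GD60 and 8.74, 18.9 and 13.7 at GD90. In males it had 27.7, 42.3 and 18.4 CPM at GD45, 31.6, 24.6 and 23.9 at GD60 and 24.7, 30.4 and 29.9 at GD90. The 3 females at GD90 were all below the 3 females at GD60 and below the 3 males at GD90, and the male libraries overlapped at all GDs.

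With sexes averaged, the difference of SRRM4 from GD60 to GD90 was -0.58 (SE 0.23), with an edgeR adjusted p of 0.0501 that lay on the other side of the threshold in 11 of 27 alternatives (range 0.0149 to 0.127). In females the difference was -1.25 (SE 0.33, adjusted p = 0.00939), which was called, although without female GD90 replicate 2 it was -1.0 (edgeR adjusted p = 0.0528). In males it was 0.08 (SE 0.32, adjusted p = 0.859), and the difference between the sexes in this change was 1.33 (SE 0.46, unadjusted p = 0.00996, edgeR adjusted p = 0.205), which did not pass, except without male GD45 replicate 17 (adjusted p = 0.043) or without its whole litter (adjusted p = 0.0458). Those GD45 libraries are not among the groups compared and enter only through the shared estimate of spread. The share of all genes passing in those 2 fits is not given here. At GD90 males were 1.04 above females (SE 0.33, unadjusted p = 0.00566, edgeR adjusted p = 0.35), which did not pass. With only the GD90 libraries in the fit, SRRM4 and ELAVL4 passed, beside 1062 of 15427 genes. SRRM4 (ENSSSCG00000009845, chr14:33657134-34317064, minus strand) has a model longer than that of RefSeq and shares exonic bases with SUDS3, while the 14 exons outside the RefSeq gene held 12 of its 6268 exon counts. The nearest genes by pattern were CHD6, IGF1R and ZFP14 (r = 0.95, 0.94 and 0.93).

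ELAVL3 and ELAVL4 encode Hu proteins, which mark neurons soon after their birth and bind AU-rich and U-rich elements in introns and in mature transcripts. ELAVL3 ranged from 58.6 to 272 CPM at GD45, with a median of 190, from 86.5 to 248 at GD60, with a median of 158, and from 104.4 to 212 at GD90, with a median of 187. ELAVL4 ranged from 4.97 to 76.3 CPM (median 49.4), from 9.47 to 50.8 (30.8) and from 27.5 to 59.5 (43.8) in the same order. The ranges overlapped between all GDs, and at GD45 the highest ELAVL4 library was 15.4-fold above the lowest. The differences of ELAVL3 were -0.20 (SE 0.30, edgeR adjusted p = 0.702) and 0.04 (SE 0.30, adjusted p = 0.934), the second of which changed sign in 5 of 27 alternatives. Those of ELAVL4 were -0.68 (95% interval -1.66 to 0.30, adjusted p = 0.352) and 0.54 (95% interval -0.44 to 1.52, adjusted p = 0.372), and the first of these intervals holds the change called in PTBP1. The genes nearest to ELAVL3 were INSYN2A, MIDEAS and ARID1A (r = 0.96 for each), and IPO7 and PTPN11 were among those nearest to ELAVL4 (r = 0.97 and 0.96). ELAVL3 (ENSSSCG00000013617) is at chr2:70117061-70134350, and ELAVL4 (ENSSSCG00000037291) at chr6:161786352-161928910.

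RBFOX1, RBFOX2, ELAVL3, ELAVL4 and SRRM4 varied together between libraries of the same GD, a group of 5 named after the values were seen. In deviations from the mean of the GD, the 10 pairs among them had Pearson r from 0.65 to 0.98 over 18 libraries (0.70 to 0.97 without male GD45 replicate 17), and their 25 pairs with the other 5 genes had r from -0.20 to 0.73. All 5 were below the mean of their GD in male GD45 replicate 17, female GD60 replicate 15, male GD60 replicates 6 and 16, and female GD90 replicates 2 and 9. In male GD45 replicate 17 the deviations were -1.14 for RBFOX1, -1.22 for RBFOX2, -1.52 for ELAVL3, -2.81 for ELAVL4 and -0.47 for SRRM4, and RBFOX3, outside this group, deviated by -0.70, while the other 4 genes lay between -0.10 and 0.20. This library came from a litter whose GD45 brains had the lowest weights in the labels, and its TMM factor of 0.849 was the lowest of the 18. The other library of that litter, female GD45 replicate 18, did not share the low levels. It deviated by 0.05 for RBFOX1, 0.15 for RBFOX2, -0.01 for ELAVL3, 0.39 for ELAVL4 and 0.12 for SRRM4. The part of litter or brain weight was not tested.

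The neuron markers did not move as 1 group in male GD45 replicate 17. Of the 9 markers, 7 were below the mean of GD45, from MAP2 at -2.86, while TUBB3 was 0.59 above it. By summed CPM the same library was the highest of GD45, with 9477, since STMN2 and TUBB3 are abundant, while the mean log2 level of the 9 was 0.58 below the GD mean. Over the 18 libraries, this mean deviation of the markers had r = 0.93 with RBFOX1, 0.92 with RBFOX2, 0.93 with ELAVL3, 0.90 with ELAVL4 and 0.80 with SRRM4. It had r = 0.77 with RBFOX3, which rose with GD, and r from -0.06 (NOVA2) to 0.27 (PTBP1) with the other 4 genes. Without male GD45 replicate 17, r was 0.58 for RBFOX3 and 0.83 (ELAVL4) to 0.89 (ELAVL3) for the group of 5. For the other 4 genes it was then 0.13 (PTBP2) to 0.22 (PTBP1), with NOVA2 at 0.20, all with the same marker mean. This mean did not stand for all 9 markers. In female GD90 replicate 2 it was -0.31, with 3 of 9 below the GD mean and DCX at -2.38. In male GD90 replicate 8 it was 0.19, with 6 of 9 below and DCX at 1.17. In female GD45 replicate 13 (0.21) and male GD45 replicate 11 (0.24), 1 of 9 was below. In male GD45 replicate 17, radial glia markers summed to 1765 CPM and erythroid markers to 789 CPM. These, with endothelial (435) and microglial (124) markers, were the highest of GD45, while cell division (286) and astrocyte (220) markers were the lowest. Exon counts were 2.50% of its PTBP2 gene counts, against 8.82 to 12.4% in the other GD45 libraries, and 47.3% over all genes, against 45.6 to 49.3%. The part of these differences in the spread of the 5 genes was not tested.

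**Figure D4:**
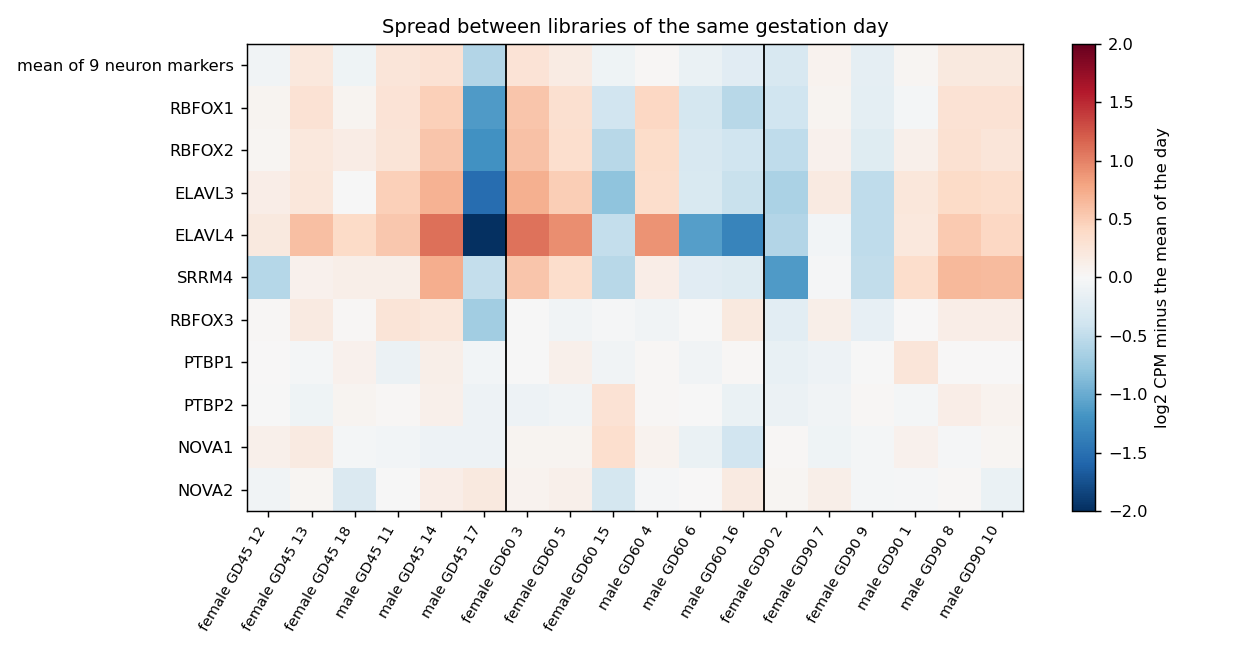
Colour gives log2 CPM minus the mean of the 6 libraries of the same GD, for the mean of 9 neuron markers and for the 10 genes (rows) in 18 libraries (columns, with sex, GD and replicate number), and the colour scale ends at -2 and 2. RBFOX1, RBFOX2, ELAVL3, ELAVL4 and SRRM4 were below the mean together in male GD45 replicate 17, where ELAVL4 reached -2.81 and RBFOX3 -0.70, while PTBP1, PTBP2, NOVA1 and NOVA2 stayed within -0.38 and 0.34 in all libraries.

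To ask whether the sexes differed, males were set against females at each GD. None of the 10 genes passed at any GD (edgeR quasi-likelihood test, 0 of 10, beside 0.0919% of all genes at GD45 and 0.0980% at GD60 and at GD90), and DESeq2 also called 0. At an unadjusted p under 0.05 there were NOVA1 at GD60 (-0.29, SE 0.12, edgeR unadjusted p = 0.0247 and adjusted p = 0.779) and SRRM4 at GD90. The interaction of sex and GD passed for 0 of 10 genes in either interval in edgeR and in DESeq2, beside 0% of all genes, with SRRM4 the gene under an unadjusted p of 0.05 in the second. Within females alone, 2 of 10 genes were called from GD45 to GD60 (PTBP1 and NOVA1, beside 7.22% of all genes) and 4 from GD60 to GD90 (PTBP1, PTBP2, RBFOX3 and SRRM4, beside 27.1%), and within males 3 (PTBP1, NOVA1 and RBFOX3, beside 5.61%) and 3 (PTBP1, PTBP2 and RBFOX3, beside 34.5%). The female count for the first interval was 1 (PTBP1) without female GD45 replicate 13, female GD60 replicate 3 or female GD60 replicate 5, and the male count for the second was 5 without male GD45 replicate 17 or male GD60 replicate 4, when RBFOX1 and ELAVL4 were added. The share of all genes called in those fits is not given here. Male GD45 replicate 17 enters the second interval only through the shared estimate of spread.

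Exon counts, a readout not used in choosing the genes, were tested for changed usage of each exon within its gene. Reads that touch more than 1 listed exon appear not to be counted in this table, since all 30746 exons that share their coordinates with another have 0 counts, and for the 10 genes the exon table held between 5.23% (NOVA1) and 91.3% (NOVA2) of the gene counts. Of 70 exons tested in the 10 genes, 0 passed from GD45 to GD60 (edgeR, 1 at an unadjusted p under 0.05, beside 0.0130% of all 76800 exons called) and 0 from GD60 to GD90 (1 unadjusted, beside 0.100% called), and limma also called 0. The 34-base exon of PTBP2 printed above had 0 to 28 counts per library, with totals of 68, 93 and 44 at the 3 GDs. Its usage differed by 0.38 and -0.46 on the natural-log scale of the edgeR coefficients (edgeR adjusted p = 1 for both). Reads that join so short an exon to its neighbours touch more than 1 listed exon and so appear not to be counted. These low counts therefore do not measure inclusion, and a change in it could not be read from them. The homologous exon of PTBP1 had 1 to 12 counts per library.

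From GD45 to GD90, a comparison added after the data were seen, 1 of the 70 exons passed, beside 1.09% of all exons. It is an RBFOX3 exon of 1608 bases (chr12:3126333-3127940) that begins at the same base as the 93-base exon printed above and runs on into the sequence after it, so its counted reads lie mostly past the 93 bases. Its share of the RBFOX3 exon counts was 13.3, 17.4 and 20.1% in the females and 14.3, 16.5 and 20.8% in the males at GD45. At GD60 it ranged from 10.2 to 17.8% (median 11.96%), and at GD90 from 5.42 to 10.5% (median 7.91%), with all GD90 libraries below all GD45 libraries. Usage fell by 0.77 on the natural-log scale of the edgeR coefficients (edgeR adjusted p = 0.0246), on 16 to 70 counts per library. The counts of the exon itself did not fall, with totals of 224, 286 and 293 at the 3 GDs, while those of all RBFOX3 exons totalled 1361, 2139 and 3747. The call was lost without female GD45 replicate 13 or 18, female GD90 replicate 2 or 7, or male GD90 replicate 8 or 10.

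**Figure D5:**
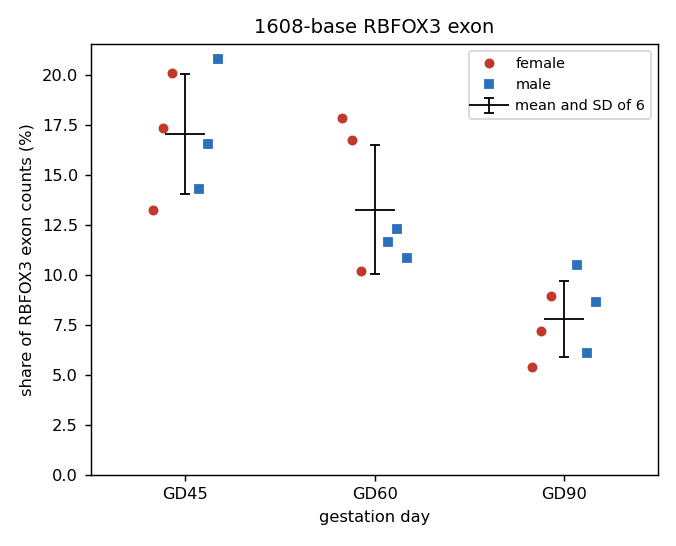
Share of RBFOX3 exon counts (vertical axis, percent, from 0) that fell on the exon of 1608 bases in each library by GD (horizontal axis), with circles for females, squares for males, and the mean and SD of 6. The share lay between 13.3 and 20.8% at GD45 and between 5.42 and 10.5% at GD90.

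Other splicing regulators, from lists chosen with earlier results of these data known, are given beside the 10 genes. Of 8 other neuronal regulators, 3 fell from GD60 to GD90 and 0 rose, beside 20.9% of all genes lower and 21.4% higher: ELAVL2 by 0.67 (SE 0.10, edgeR adjusted p = 5.20e-05), KHDRBS2 by 0.55 (SE 0.14, adjusted p = 0.00531) and KHDRBS3 by 0.29 (SE 0.10, adjusted p = 0.0249). From GD45 to GD60, 1 of the 8 rose and 1 fell, beside 9.35% of all genes higher and 7.37% lower. The count that fell was 0 without female GD45 replicate 13, male GD45 replicate 11 or 14 or male GD60 replicate 16, and the count that rose was 2 without male GD45 replicate 17. The list's median was 0.12 in the first interval and -0.15 in the second, beside -0.01 over all genes in both.

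Of 10 broadly expressed paralogues and regulators tested from a list of 12, 2 rose and 3 fell from GD60 to GD90. Of all genes, 21.4% were higher and 20.9% lower. MBNL2, which promotes mature splicing patterns, rose by 0.93 on the log2 scale (SE 0.10, edgeR adjusted p = 2.35e-06), and QKI, which acts in glia, by 0.57 (SE 0.10, adjusted p = 2.57e-04). MSI1, a translational regulator of neural progenitors, fell by 1.10 (SE 0.10, adjusted p = 2.94e-07), and KHDRBS1, known as Sam68, fell by 0.70 (SE 0.15, adjusted p = 0.00121). In the first interval 0 rose and 2 fell, beside 9.35% of all genes higher and 7.37% lower, and 4 fell without male GD45 replicate 17. The list's median was -0.10 and -0.07.

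The SR proteins bind exons and help define them. From GD45 to GD60, 5 of 11 fell and 0 rose, beside 7.37% of all genes lower and 9.35% higher. From GD60 to GD90, 9 of 11 fell and 0 rose, beside 20.9% of all genes lower and 21.4% higher. The list medians were -0.25 and -0.42. Among those not called were SRSF12, with 0.11 in the first interval, and SRSF5, with 0.04 in the second. The largest falls in the second interval were those of SRSF7 (log2 -0.72, SE 0.14, edgeR adjusted p = 6.32e-04), SRSF11 (-0.58), SRSF3 (-0.58) and SRSF10 (-0.54). Of 13 hnRNP proteins tested from a list of 15, which bind nascent transcripts as PTBP1 does, 10 fell and 0 rose in the first interval, and 9 fell and 0 rose in the second, with medians of -0.44 and -0.40. The shares of all genes are those given for the SR proteins. HNRNPH2, named after its values were seen, was 0.31 higher in the second interval (SE 0.13, edgeR adjusted p = 0.0546), and 1 of the 13 was called higher there by DESeq2 and without male GD45 replicate 14 or 17. Among them HNRNPA1 fell by 0.99 (SE 0.08, adjusted p = 5.27e-08), HNRNPA0 by 0.83, HNRNPD by 0.82 and HNRNPH1 by 0.69 from GD60 to GD90. The cell division and progenitor markers given above fell over the same intervals, and their part was not tested.

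Genes known to carry exons under the control of these regulators were read at the level of the whole gene. Of 16, 4 rose and 0 fell from GD45 to GD60, beside 9.35% of all genes higher and 7.37% lower. From GD60 to GD90, 7 rose and 6 fell, beside 21.4% of all genes higher and 20.9% lower. The list's median was 0.11 and 0.17. GRIN1, an NMDA receptor subunit, rose by 1.01 (SE 0.09, edgeR adjusted p = 2.86e-07), GABBR1, a GABA-B receptor subunit, by 0.83 (SE 0.08, adjusted p = 2.94e-07) and DLG4, the postsynaptic scaffold PSD-95, by 0.74 (SE 0.10, adjusted p = 1.25e-05). SRC, a tyrosine kinase with a neuronal exon, fell by 0.75 (SE 0.08, adjusted p = 6.82e-07). These are levels of genes and do not measure their splicing.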

How the data were processed

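The values the authors deposited are raw read counts per gene (31908) and exon (319124) on Sscrofa11.1, without normalization, made with Trimmomatic, HISAT2 and featureCounts. Of the 22 columns, the 2 runs of each of 4 libraries were summed to give 18 libraries. A transcript table was not used here. Options for strand and shared reads are not given in the sources used here.

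The model, in edgeR 4.0.16 under R 4.3.3, had 1 mean for each sex and GD, after filterByExpr (16325 genes) and TMM scaling, with quasi-likelihood F tests, Benjamini-Hochberg adjustment over all genes and a threshold of 0.05. Correlations used log2 CPM with a prior count of 2. The ratio was tested by exact two-sided permutation of libraries, and exon usage with diffSpliceDGE on 76800 exons. Limma 3.58.1 and DESeq2 1.42.0 were alternatives. On simulated data the gene test recovered known changes, and the exon test also called some unchanged exons. Counting errors take reads as independent molecules.

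Named were the 10 regulators, up to 4 called genes of each list with the largest change from GD60 to GD90, the 3 genes most like each regulator by Pearson r (1 of these is not reported here), and called exons. The regulators and lists were chosen with earlier results of these data known. Fetuses of 1 litter (same GD and litter size in the labels) form pairs within a GD, and the correlations of their deviations from the group means ranged from -0.09 to 0.42.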

Additional observations from a re-analysis of the deposited data

Results flagged for a closer look

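With 6 libraries for each GD, 33 groups of values were checked for a library far from the others, and 9 such values were found, while chance gives about 1 in 20 groups. In male GD45 replicate 17 these were low levels of RBFOX1 (30.6 CPM, the next library 70.0), RBFOX2 (160 CPM, next 383), RBFOX3 (24.9 CPM, next 41.1), ELAVL3 (58.6 CPM, next 167) and ELAVL4 (4.97 CPM, next 40.7). PTBP2 was high in female GD60 replicate 15 (220 CPM, next 183), and RBFOX3 was high in male GD60 replicate 16 (76.6 CPM, next 66.4). The PTBP2 to PTBP1 ratio was high in male GD45 replicate 11 (1.12, next 1.01) and low in male GD90 replicate 1 (0.922, next 1.15).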

How the results depend on the processing

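The calls of PTBP1, PTBP2, NOVA1 and RBFOX3 between GDs with sexes averaged kept their direction and their side of the threshold in all 27 alternatives, and no called value reversed. With only the compared libraries in the fit, 5 genes were called for GD90 against GD60 (RBFOX1 and SRRM4 added), 6 in males, 0 in males for GD60 against GD45 (when 0 of all genes were called), and 2 for males against females at GD90 (SRRM4 and ELAVL4). With the GD45 litter of 8 left out, 5 genes were called for GD90 against GD60, 5 in males, and 1 for the interaction of sex and GD (SRRM4). Leaving out 1 library at a time gave 3 to 5 genes for GD90 against GD60 and 3 to 5 in males, 1 to 3 in females for GD60 against GD45, 0 to 1 for the interaction from GD60 to GD90, differences of 0.1205 to 0.2038 for the ratio at GD90 against GD45, and 0 to 1 exons for GD90 against GD45. The share of all genes called also depends on the fit and is not set beside each of these counts, so they do not set the 10 genes apart. For GD90 against GD60 the count of 5 arose without male GD45 replicate 17, which enters that comparison only through the shared estimate of spread, and in males also without male GD60 replicate 4. The GD45 libraries enter the interaction from GD60 to GD90 in the same indirect way. The log2 ratio differed by 0.4949 and -0.3485 with litter means, by 0.5557 and -0.3496 in females alone and by 0.4341 and -0.3473 in males alone (3 against 3, which cannot pass), and from exon counts by -0.08798 for GD90 against GD60 and 0.364 for GD90 against GD45. Exon counts without male GD45 replicate 17, an alternative chosen after seeing the data, gave 0.2925 for GD60 against GD45, not called, and -0.08798 for GD90 against GD60. The RBFOX3 exon was not called (0) without TMM factors or with the litter of 8 left out. The litter as a replicate block changed no call in the comparisons of sexes and the interactions, and counts summed per litter changed none of the 10 regulators between GDs. Where the cause of a change is not given, the cause was not tested. Single exons are limited by low counts and by the reads that the exon counts appear to leave out. The 34-base exon of PTBP2 had 0 to 28 counts per library.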
